A study of Mus musculus with 3 samples.

Results

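The genes described here encode the canonical histones of the mouse. They were taken as every gene symbol that opens with Hist1h, Hist2h, Hist3h or Hist4h, and 67 of the 32285 genes in the count tables met this. Of these, 6 encode linker histone H1, 18 encode H2a, 18 encode H2b, 12 encode H3 and 13 encode H4. The data were single-cell RNA counts from mouse small intestinal organoids on the C57BL/6 strain. Each of the 3 groups was a single library. WT organoids carry only that genotype label. For LApc organoids the genotype is labelled Lgr5-CreERT2;Apc fl/fl, with the Cre allele named Lgr5-EGFP-IRES-CreERT2 in the study's methods, where Cre is active in Lgr5+ stem cells once tamoxifen is given and is meant to remove Apc, which restrains the Wnt pathway. The LApcL genotype adds Lef1 fl/fl, which targets Lef1, a transcription factor of that pathway. All groups, WT included, are labelled with 2 doses of 2 mg tamoxifen at an age of 7 to 8 weeks. Mice were analysed 21 days after tamoxifen in the case of WT and LApcL, and after 29 days in that of LApc. Cells were taken at passage 3, day 6, and the extent of deletion in the cultures was not measured here. With 1 library per genotype no test between groups was possible, genotype cannot be told apart from library, and no p-value was computed.

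Histones are the proteins around which DNA is wound, and H1 binds the DNA between the wound cores. Most canonical histone genes are switched on while DNA is copied, and their mRNAs end in a short stem-loop in place of a poly(A) tail. Some copies can also be read on to a poly(A) signal further along. The 10x libraries prime on poly(A), so a transcript that ends at the stem-loop is captured less readily than one with a tail. Replacement histones, such as H2afz and H3f3b, are made outside DNA copying and carry ordinary tails.

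The annotated transcripts divided the 67 genes by how they end, a feature that no expression value entered. The histone stem-loop, searched as an arm of 6 bases from GG to CT, a loop of 4 bases and the pairing arm, was found in 46 of 67 histone transcripts (68.7%) on the sense strand of GENCODE M21, against 131 of 21834 other protein-coding genes (0.6%). Of these 46, 23 ended no more than 100 bases after the loop and 23 ran on further. The other 21 genes had annotated transcripts without it, with a median length of 393 bases, and for the short ones the model may stop before the real end. The longest of these 21 were those of Hist2h2be (2620 bases) and Hist1h2bc (1156 bases in 2 exons). AATAAA, the main poly(A) signal, lay within 40 bases of the annotated end in 10 of the 23 transcripts that ran on, in 0 of the 23 that ended at the loop and in 1 of the other 21. The windows below are shown because the loop itself is the same or nearly so in genes that behaved differently. Capitals mark the paired arms, and positions are on GRCm38. Hist1h3c, Hist1h2ap and Hist1h2bm have transcripts that end 74, 3 and 46 bases after the loop. Those of Hist1h1e, Hist1h1c, Hist3h2a and Hist1h4i run on for 1153, 840, 1643 and 330 bases.
Hist1h3c, chr13:23745042-23745067, reverse strand: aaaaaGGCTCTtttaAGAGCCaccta
Hist1h2ap, chr13:21833026-21833049, reverse strand: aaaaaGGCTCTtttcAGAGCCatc
Hist1h2bm, chr13:21722501-21722526, forward strand: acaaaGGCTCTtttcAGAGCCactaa
Hist1h1e, chr13:23621777-23621802, reverse strand: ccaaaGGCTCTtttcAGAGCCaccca
Hist1h1c, chr13:23739507-23739532, forward strand: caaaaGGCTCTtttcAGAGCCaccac
Hist3h2a, chr11:58955167-58955192, forward strand: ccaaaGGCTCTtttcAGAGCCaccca
Hist1h4i, chr13:22040961-22040986, reverse strand: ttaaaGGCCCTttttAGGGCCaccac

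Hist1h1e and Hist3h2a had the same 26 bases at the loop. The commonest loop, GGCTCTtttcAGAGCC, was found in 26 of the 67 genes, and the form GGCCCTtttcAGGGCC in 7. Of the 67 genes, 54 lay on chromosome 13, 10 on chromosome 3, 2 on chromosome 11 and 1 on chromosome 6.

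Promoters set the histone types apart too. The RefSeq table for GRCm38.p6 held 62 promoters of 61 of these genes, each from 250 bases before to 50 after the start. On either strand, TATAAA was found in 56.5% of them against 13.6% of all 32851 promoters in the table. CCAAT was found in 85.5% against 37.4%, with all promoters of H1, H2a, H2b and H3 genes holding it and 3 of the 12 of H4 genes. The octamer ATTTGCAT was found in 22.6% against 1.74%, in 7 of 17 H2a promoters, 7 of 17 H2b promoters and none of the others. H2a and H2b genes often face each other and share the bases between them, so these promoters are not independent. The 250 bases before the start are given for 3 genes: Hist1h1b and Hist1h1c, H1 genes at opposite ends of the cell-cycle comparison given later, and Hist2h2bb, which holds the octamer. Capitals mark the 3 motifs on either strand.
Hist1h1b, chr13:21780626-21780875, reverse strand: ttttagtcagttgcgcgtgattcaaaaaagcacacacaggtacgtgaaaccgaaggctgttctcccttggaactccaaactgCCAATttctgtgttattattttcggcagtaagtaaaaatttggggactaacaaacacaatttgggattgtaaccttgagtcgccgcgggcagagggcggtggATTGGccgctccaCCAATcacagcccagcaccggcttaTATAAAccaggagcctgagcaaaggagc
Hist1h1c, chr13:23738557-23738806, forward strand: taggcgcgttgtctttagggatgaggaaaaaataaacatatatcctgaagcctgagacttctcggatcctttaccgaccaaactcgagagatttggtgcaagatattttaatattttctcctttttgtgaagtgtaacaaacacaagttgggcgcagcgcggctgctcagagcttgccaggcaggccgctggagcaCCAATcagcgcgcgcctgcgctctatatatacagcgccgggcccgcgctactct
Hist2h2bb, chr3:96269450-96269699, forward strand: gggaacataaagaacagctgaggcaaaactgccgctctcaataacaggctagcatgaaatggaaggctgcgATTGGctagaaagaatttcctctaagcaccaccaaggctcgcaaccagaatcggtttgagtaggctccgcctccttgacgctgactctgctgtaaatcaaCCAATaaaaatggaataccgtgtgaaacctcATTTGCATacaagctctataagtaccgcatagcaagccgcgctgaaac

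Each barcode stands for a droplet, as a rule with a single cell in it, and each unique molecular identifier (UMI) for a captured molecule. Barcodes were used where they occurred in 1 library only and had at most 20% of UMIs from mitochondrial genes. Of the deposited barcodes, 2992 of 11411 were kept for WT, 3584 of 10706 for LApc and 4644 of 12068 for LApcL. The same 3195 barcodes were found in all 3 libraries. In barcodes of more than 1 library, the summed level of 5 endothelial markers was 3494 to 3756 counts per 1000000 UMIs (CPM) against 11.9 to 21.0 CPM in the barcodes used. The 7 epithelial markers summed to 4546, 7262 and 8084 CPM in the barcodes used of WT, LApc and LApcL, so the epithelial label held in them. The 4 enterocyte markers summed to 9909 CPM in WT but to 1.66 in LApc and 0.895 in LApcL, so the libraries also differed in the kinds of epithelial cell they held. Barcodes with at least 10000 UMIs are called deep and the others shallow. There were 1208 deep and 1784 shallow barcodes in WT, 2161 and 1423 in LApc, and 1931 and 2713 in LApcL. A fold or share below compares RNA among all RNA counted, and all intervals are exact at the 95% level and cover counting error only.

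Histone transcripts made up a small part of the RNA and were most abundant in WT. All 67 genes were seen, with 449390 UMIs in all. Their share of UMIs was 0.262% (0.260 to 0.263) in WT, 0.147% in LApc and 0.185% in LApcL. In deep barcodes it was 0.201%, 0.130% and 0.150%, and in shallow barcodes 0.766%, 0.468% and 0.499%. By summed UMIs, WT was highest and LApc lowest in both depth classes. By the median deep barcode LApcL was lowest, at 0.0731% against 0.0828% in LApc and 0.161% in WT. The 10% of deep barcodes with the most histone UMIs held 46.4% of them in LApcL, 41.6% in LApc and 31.2% in WT. Thinned to 10000 UMIs, the median was 8 histone UMIs in LApc and in LApcL, and 16 in WT.

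Linker histone genes led in every library. In deep barcodes H1 took 56.6% of WT histone UMIs, 35.2% of those of LApc and 37.1% of those of LApcL, although it is the smallest type by number of genes. H2a took 11.4% in WT, 23.0% in LApc and 26.0% in LApcL. H3 was the lowest type, at 80.3, 67.7 and 118 CPM.

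**Figure D1:**
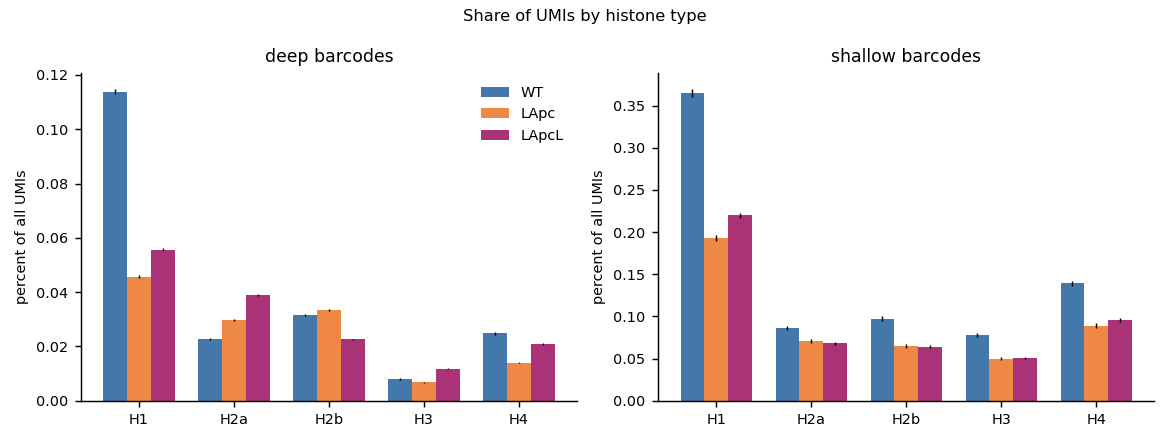
Share of all UMIs (vertical axis, percent) held by each histone type (horizontal axis) in deep barcodes (left) and shallow barcodes (right), by library, with 95% Poisson intervals as black lines; the vertical scales differ. H1 is the highest type in every library, at 0.114% in deep WT barcodes against 0.0458% in LApc and 0.0556% in LApcL.

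A few genes carried most of the signal. The 5 highest held 53.5% of all histone UMIs and the 10 highest 71.0%. Hist1h1e led with 69233 UMIs, followed by Hist1h1c with 49410, Hist1h2bc with 43796, Hist1h1b with 42636 and Hist1h2ap with 35301. At the other end, 5 genes had fewer than 20 UMIs. These were Hist1h1t (13), Hist1h2aa (9), Hist2h2aa2 (6), Hist1h2bq (1) and Hist1h2ba (1). Hist1h1t, Hist1h2aa and Hist1h2ba are known as testis genes. Each UMI counts 1 transcript end, so levels were not divided by length. Many H2a, H2b, H3 and H4 genes are nearly identical copies, and how reads were split among them is uncertain for every single gene named here.

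Within H1, the order of the genes differed between libraries. Hist1h1e stood at 381 CPM (376 to 387) in deep WT barcodes, 134 CPM in LApc and 195 CPM in LApcL. Hist1h1c stood at 444 CPM in WT, 153 CPM in LApc and 72.6 CPM (70.8 to 74.5) in LApcL. Hist1h1b differed much less, with 165, 124 and 188 CPM. In deep barcodes Hist1h1c was thus the highest H1 gene in WT and LApc, and the third in LApcL after Hist1h1e and Hist1h1b. In shallow barcodes Hist1h1e was above Hist1h1c in WT (1685 against 682 CPM) and LApc (856 against 326 CPM). It was also above over all barcodes used (520 against 469 CPM in WT and 171 against 162 CPM in LApc).

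**Figure D2:**
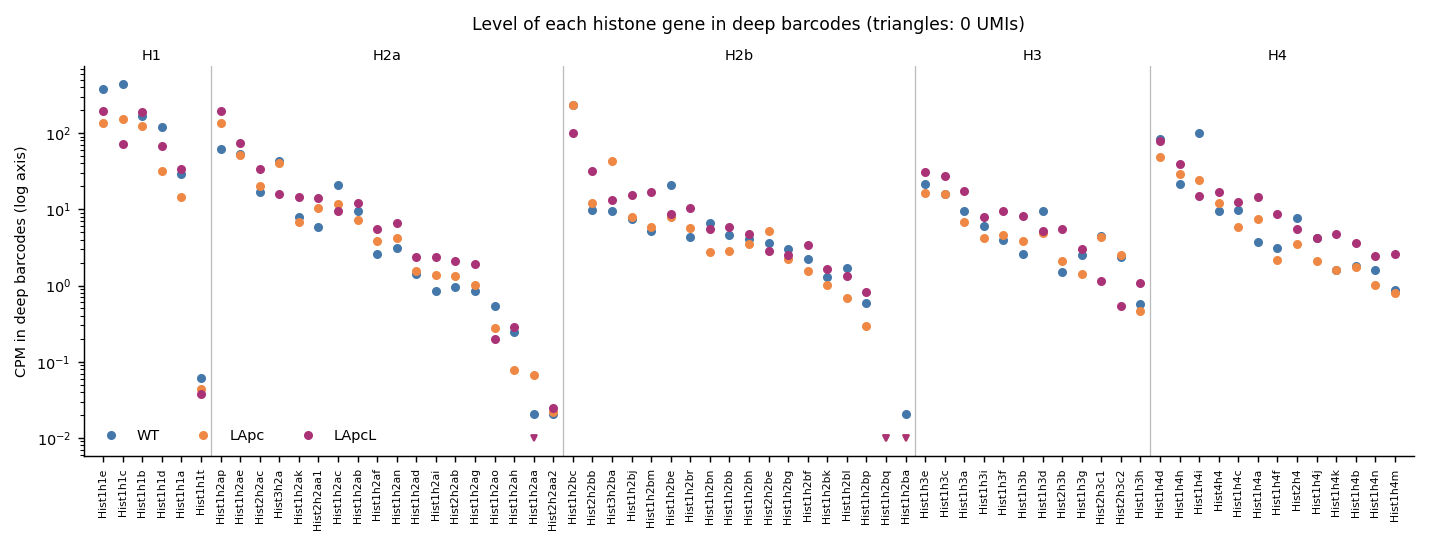
Level of each of the 67 histone genes in deep barcodes (vertical axis, CPM, log scale), grouped by type and ordered by UMIs, with 1 point per library and triangles at the bottom for genes with 0 UMIs (overlapping where several libraries had none). Hist1h1c lies at 444 CPM in WT and 72.6 CPM in LApcL, while Hist1h2ap lies at 61.4 CPM in WT and 194 CPM in LApcL.

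The question of how histone RNA goes with the cell cycle was addressed in deep barcodes. Each was thinned at random to 10000 UMIs, so that detection did not depend on depth, and put in 1 of 4 states by the presence of at least 1 UMI of Pcna, a sliding clamp of DNA copying, and of Mki67, a protein of dividing cells. Barcodes with both made up 12.5% of WT, 18.5% of LApc and 31.6% of LApcL. Per 10000 UMIs, histone genes gave 18.4 in WT barcodes with neither gene and 39.8 in those with both, a fold of 2.17. In LApc the values were 11.2 and 23.3, a fold of 2.07. In LApcL they were 9.70 and 33.2, a fold of 3.42. The log2 ratios were 1.12 (1.07 to 1.16), 1.05 (1.01 to 1.10) and 1.77 (1.73 to 1.82).

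Pcna alone did not go with more histone RNA. Barcodes with Pcna but not Mki67 gave 16.3 histone UMIs per 10000 in WT, 9.92 in LApc and 8.69 in LApcL, in each library below the barcodes with neither gene. The log2 ratio to those was -0.18 (-0.22 to -0.13) in WT, -0.18 (-0.22 to -0.13) in LApc and -0.16 (-0.22 to -0.10) in LApcL. In the same WT comparison, the 26 genes of the S phase list, which leaves out Pcna and Mki67, summed to 4.34 per 10000 against 1.61. Barcodes with Mki67 but not Pcna gave 31.8, 24.3 and 26.6 histone UMIs per 10000. With Pcna alone, 0 of 43 histone genes compared in WT, 1 of 49 in LApc and 3 of 50 in LApcL were at least 2-fold higher than with neither gene, where 1.39%, 1.11% and 1.41% of all genes were. At least 2-fold lower were 2, 0 and 2, where 0.268%, 0.698% and 0.736% of all genes were. With Mki67 alone, 34 of 48, 36 of 49 and 45 of 54 were higher, where 6.35%, 3.47% and 3.17% of all genes were. There 0, 2 and 0 were lower, where 6.73%, 7.33% and 3.6% of all genes were. A gene was compared here with at least 10 UMIs in 1 of the 2 states, and so could enter through the state in which it was high. The 45 histone genes with at least 100 UMIs in the deep barcodes of every library, a limit that does not look at the states, gave 33, 34 and 37 genes at least 2-fold higher with Mki67 alone in WT, LApc and LApcL, where 7.42%, 4.05% and 3.2% of all genes were. There 0, 1 and 0 of the 45 were lower, where 4.06%, 2.83% and 1.83% of all genes were. With Pcna alone, 0, 1 and 3 of the 45 were higher, where 1.03%, 1.17% and 1.34% of all genes were, and 3, 0 and 1 were lower, where 0.117%, 0.234% and 0.253% were.

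In summed UMIs, the state difference was largest in genes whose annotated transcript ends at the stem-loop. These 23 genes summed to 0.943 per 10000 in WT barcodes with neither gene and to 7.23 in those with both, a fold of 7.66 (6.87 to 8.55). The fold was 6.96 in LApc (0.997 and 6.94) and 6.10 in LApcL (1.58 and 9.67). Hist1h2ap held 61.4 of the 177 CPM of this class in deep WT barcodes, 136 of 259 CPM in LApc and 194 of 415 CPM in LApcL. Its annotated transcript holds a run of 12 A bases, whose part in its capture was not tested. The 23 genes whose transcript runs past the loop went from 14.0 to 20.6 in WT, from 6.56 to 9.37 in LApc and from 5.80 to 13.7 in LApcL, folds of 1.47, 1.43 and 2.37. In each library the interval of the first class lay above that of the second. The 21 genes with no annotated loop lay between as a sum, with folds of 3.50, 1.90 and 4.22. Hist1h2bc, with 231 of the 477 CPM of that class in deep WT barcodes, was lower with both genes in every library. Gene by gene the order was not the same. Over genes with at least 100 UMIs in the deep barcodes of every library, the median log2 ratio was 2.61, 2.34 and 2.50 for the 14 ending at the loop, 2.68, 2.49 and 2.41 for the 11 with no annotated loop, and 1.24, 1.08 and 1.60 for the 20 running past it. The 11 replacement histones summed differed less than any of these classes, with 45.7 and 58.6 per 10000 in WT, 60.8 and 67.0 in LApc, and 53.9 and 65.9 in LApcL.

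**Figure D3:**
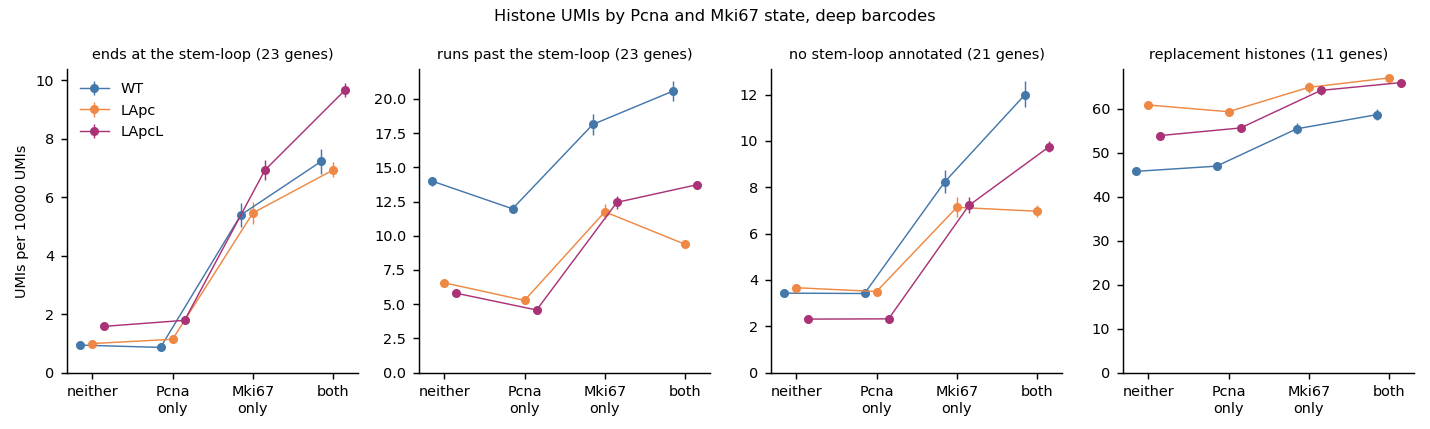
UMIs per 10000 UMIs (vertical axis, each panel on its own scale from 0) in deep barcodes thinned to 10000 UMIs, by Pcna and Mki67 state (horizontal axis), for 3 classes of histone gene by annotated transcript end and for replacement histones, with 95% Poisson intervals. Genes ending at the stem-loop go from 0.943, 0.997 and 1.58 with neither gene to 7.23, 6.94 and 9.67 with both in WT, LApc and LApcL, while barcodes with Pcna only stay near those with neither.

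Barcodes with both genes were deeper before thinning, with medians of 45220 against 36930 UMIs in WT, 51800 against 29470 in LApc and 43780 against 26310 in LApcL. The fold was therefore also taken within depth. Among barcodes of 10000 to 20000 UMIs it was 4.01 in WT, 3.53 in LApc and 7.58 in LApcL. Among those of 20000 to 50000 UMIs it was 1.73, 1.60 and 2.58, and from 50000 UMIs on 1.74, 2.57 and 2.01. Within 20000 to 50000 UMIs, genes ending at the loop differed by 6.09, 5.30 and 5.07-fold, while those running past it differed by 1.14, 1.14 and 1.76-fold. At 10000 to 20000 UMIs the folds were 7.66, 9.82 and 12.3 for genes ending at the loop and 3.10, 2.69 and 5.22 for those running past it, and from 50000 UMIs on they were 8.43, 9.58 and 3.28, and 1.08, 1.65 and 1.45. Without thinning the folds over all deep barcodes were 1.30 in WT, 1.27 in LApc and 1.94 in LApcL.

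Gene by gene, 53 of the 67 genes had at least 10 UMIs in 1 of the 2 states in WT, 56 in LApc and 57 in LApcL. Of these, 39, 40 and 48 were at least 2-fold higher in barcodes with both genes than with neither, where 9.54%, 5.94% and 4.66% of all genes were. At least 2-fold lower were 1, 5 and 1, where 7.49%, 10.3% and 3.55% of all genes were. In all 3 libraries 50 genes could be compared, and 33 of them were at least 2-fold higher in each. A gene could pass this minimum through the state in which it was high. Among the 45 histone genes with at least 100 UMIs in every library, 29 were at least 2-fold higher in each library, where 3.45% of all genes under the same limit were (10.5%, 6.12% and 4.5% in WT, LApc and LApcL singly). These 29 were 12 of 14 genes ending at the loop, 8 of 20 running past it and 9 of 11 with no annotated loop.

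Ordered by the median log2 ratio of the 3 libraries, Hist1h1b came first of the 50 genes. It had 176 UMIs in WT barcodes with neither gene and 1060 in those with both, 86 and 1519 in LApc, and 179 and 2859 in LApcL. The log2 ratios, scaled to the UMIs of each state, were 4.26, 4.76 and 3.55. Hist1h3c followed with 3.88, 4.02 and 3.50, and Hist1h2ap with 3.50, 3.91 and 3.12. Hist1h2ab (3.49, 3.34 and 3.47), Hist1h2ae (3.04, 3.50 and 2.98) and Hist1h2bm (2.62, 3.08 and 3.03) came next. Hist1h2ae, whose annotated transcript ends 151 bases after the loop, had the highest median of those that run past it. Within single libraries the order differed. Hist2h2bb, with 20 and 89 UMIs, had 3.57 in WT, above Hist1h2ap. Hist1h1a, with 14 and 182 UMIs, had 3.895 in LApc, above Hist1h2ab. Hist1h2af (1 and 29 UMIs) had 4.07 in WT, and Hist1h2an (1 and 90 UMIs) had 3.69 in LApcL. With 1 UMI in the barcodes with neither gene, the rank of these last genes was not read. Hist1h4d, the H4 gene with the most UMIs, had ratios of 1.49, 1.92 and 1.99.

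A small set of genes did not share the pattern. Of the 50 compared, 6 were under 2-fold higher in every library, and 3 of these were lower with both genes in each. Hist3h2a had 252 UMIs in WT barcodes with neither gene and 36 in those with both, 434 and 65 in LApc, and 121 and 71 in LApcL. Its log2 ratios were -1.07, -1.96 and -1.12. Hist3h2ba, its H2b neighbour on chromosome 11, had -0.04, -2.16 and -0.23. Hist1h2bc had -0.95, -1.36 and -0.27. The others were Hist1h1c (-0.75, -1.13 and 0.11), Hist1h4i (-0.41, 0.11 and 0.65) and Hist2h2be (0.72, -0.67 and -0.26). Hist3h2a, Hist3h2ba, Hist1h1c and Hist1h4i have annotated transcripts that run past the loop, and none of the 6 ends at it. Hist1h2bc was the leading H2b gene, with 231 of the 316 CPM of H2b in deep WT barcodes and 232 of 335 CPM in LApc. H2b as a type was lower with both genes in LApc, with 2.93 per 10000 against 4.39, and higher in WT (4.19 against 3.26) and LApcL (4.32 against 2.04).

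**Figure D4:**
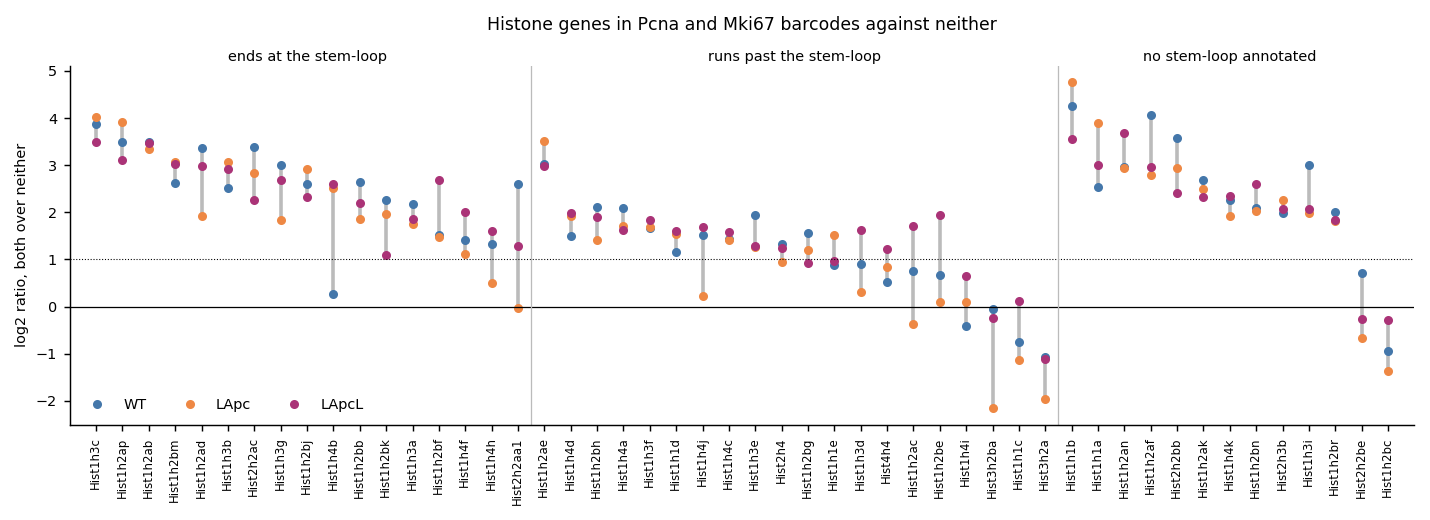
Log2 ratio of each histone gene in deep barcodes with both Pcna and Mki67 over those with neither (vertical axis), for the 50 genes compared in all 3 libraries, grouped by annotated transcript end, with 1 point per library and a grey line over their range; the dotted line marks 2-fold. All points of Hist1h1b lie at 3.55 or above, and those of Hist3h2a lie at -1.07 or below.

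Barcodes were also put in 4 equal groups by the summed UMIs of a list of 20 mitosis genes. Histone UMIs per 10000 were 17.6, 17.1, 17.2 and 34.8 from the lowest to the highest group in WT, and 12.9, 9.85, 8.32 and 24.2 in LApc. In LApcL they were 6.58, 7.91, 16.0 and 45.1. Over the S phase list the groups gave 18.2, 19.2, 19.4 and 30.0 in WT, 12.6, 11.8, 12.5 and 18.4 in LApc, and 8.02, 12.1, 19.7 and 35.8 in LApcL. The groups do not hold the same list levels in each library. For WT, LApc and LApcL in turn, the highest S phase group began at 4, 15 and 26 list UMIs and the highest mitosis group at 5, 11 and 28. Most neighbouring groups shared a list value, so that barcodes with equal list UMIs were split between them. The steps were therefore not compared between libraries.

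Of 8 histone chaperones, all with at least 100 UMIs in every library, 5 were at least 2-fold higher with both Pcna and Mki67 than with neither in each library, where 3.45% of all genes were. Nasp, a carrier of H1 and H3 with H4, stood at 36.6 and 138 CPM in WT barcodes with neither and both, at 83.7 and 287 CPM in LApc, and at 95.9 and 297 CPM in LApcL. Asf1b had log2 ratios of 3.33, 3.88 and 2.93, while its relative Asf1a had 1.11, 0.18 and 0.43. Of 11 genes of histone mRNA processing and transcription with that depth, 2 were at least 2-fold higher in each library and 9 were not. One was Slbp, which binds the stem-loop, with log2 ratios of 1.33, 1.22 and 1.16, and the other was E2f1, with 1.95, 1.72 and 1.53. Lsm10, of the particle that cuts histone pre-mRNA, had -0.29, -0.08 and -0.33. Among replacement histones, 3 of 10 were: Cenpa, the histone of centromeres, H2afx and H2afz. H3f3b, a tailed H3 gene, stood at 1858 and 1797 CPM in WT, 1982 and 1978 CPM in LApc, and 1697 and 1801 CPM in LApcL.

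Across deep barcodes, the genes whose UMIs were most closely related to summed histone UMIs were Top2a, Mki67, Prc1 and H2afx. Pearson's r for Top2a, which untangles DNA, was 0.39 in 1208 WT barcodes, 0.33 in 2161 LApc barcodes and 0.49 in 1931 LApcL barcodes. For Pcna it was 0.02, 0.03 and 0.11, and for Slbp 0.07, 0.09 and 0.21. Some negative values were of similar size, such as those of Btf3 (-0.24, -0.25 and -0.31) and Rpl5 (-0.20, -0.34 and -0.45). The barcodes share a library and a fixed total, so these values are a description.

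Between libraries, the question was how histone RNA differed with Apc and with Lef1. At a pseudocount of 1 CPM, the share of histone genes at least 2-fold higher was above that of all genes in LApcL against LApc, and below it in LApc against WT. In LApcL against WT it was near that of all genes. In deep barcodes 62 genes had at least 10 UMIs in 1 of the 2 libraries. In LApc against WT, 2 were at least 2-fold higher and 6 lower, where 19.6% and 8.13% of all genes were. In LApcL against LApc, 9 were higher and 6 lower, where 1.32% and 3.92% of all genes were. In LApcL against WT, 11 were higher and 8 lower, where 20.9% and 9.26% were. The median log2 ratio over the histone genes was -0.14, 0.56 and 0.41, and over all genes 0.31, -0.00 and 0.29. With a pseudocount of 10 CPM in place of 1, the counts became 0 and 2 in LApcL against LApc, where 0.29% and 0.978% of all genes were called, and 2 and 4 in LApcL against WT, where 8.1% and 4.09% were. With median-of-ratios scaling they became 1 and 11 in LApc against WT, where 14.7% and 10.5% of all genes were called, and 6 and 11 in LApcL against WT, where 14.7% and 12% were, and the median over all genes moved from 0.31 to 0.15 and from 0.29 to 0.11.

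In deep barcodes, the lower total in LApc than in WT came with lower H1 and H4 levels and a higher H2a sum, in which Hist1h2ap weighed heavily. H1 summed to 1139 CPM in WT and 457 CPM in LApc, a log2 ratio of -1.32 (-1.33 to -1.30). Hist1h1d, Hist1h1c and Hist1h1e had ratios of -1.87, -1.53 and -1.51. H4 had -0.82, with Hist1h4i at 98.9 CPM in WT and 24.3 CPM in LApc. H2a had 0.39 (0.35 to 0.42), with sums of 228 and 299 CPM, of which Hist1h2ap held 61.4 and 136 CPM. The next highest H2a genes were not higher in LApc, with Hist1h2ae at 52.7 and 51.8 CPM and Hist3h2a at 42.5 and 40.2 CPM. In shallow barcodes H2a was lower in LApc, with -0.29. Besides Hist1h2ap, the only gene at least 2-fold higher in deep LApc barcodes was Hist3h2ba, at 9.53 and 43.0 CPM. In shallow barcodes more genes were lower than in WT. There 1 of 62 genes was at least 2-fold higher and 28 lower in LApc, where 16.6% and 17.8% of all genes were, and 1 and 30 in LApcL, where 17.5% and 20.2% were. In LApcL against LApc 0 were higher and 4 lower, where 2.45% and 4.75% were. Apart from H1, the remaining 61 genes summed in deep barcodes to nearly equal levels, 873 CPM in WT and 841 CPM in LApc.

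In LApcL against LApc, the summed level of genes ending at the loop was higher, and single genes lay on both sides. Genes ending at the loop summed to 415 CPM in LApcL and 259 CPM in LApc, a log2 ratio of 0.68 (0.65 to 0.70), while those running past it had 0.10 (0.08 to 0.11). Genes with no annotated loop summed to 425.4 CPM and 423.5 CPM. The highest ratios were those of Hist1h4f (8.71 and 2.14 CPM, 1.63), Hist1h2bm (16.7 and 5.83 CPM, 1.37), Hist2h2bb (31.3 and 12.1 CPM, 1.31), Hist1h3a (1.22) and Hist1h4k (1.17). The lowest were those of Hist3h2ba (13.4 and 43.0 CPM, -1.61), Hist2h3c1 (-1.29), Hist3h2a (16.0 and 40.2 CPM, -1.28), Hist1h2bc (101 and 232 CPM, -1.19) and Hist2h3c2 (-1.19). Both Hist3 genes were thus among the lowest. H2b as a type was lower in LApcL, at 226 CPM against 335 CPM.

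Within states, differences between libraries were not all as they were over all deep barcodes. Among barcodes with both Pcna and Mki67, histone UMIs per 10000 were 39.8 in WT, 23.3 in LApc and 33.2 in LApcL, and the log2 ratio of LApcL to LApc was 0.51 (0.47 to 0.55). Genes ending at the loop had 0.48 there and 0.67 among barcodes with neither gene. Over all genes of the group the ratio with neither gene was -0.21 (-0.26 to -0.16), the opposite direction. In LApc against WT, genes ending at the loop had 0.55 over all deep barcodes. They had -0.06 (-0.16 to 0.04) with both genes and 0.08 (-0.09 to 0.25) with neither, intervals that include no difference. With Mki67 only they had 0.02 (-0.13 to 0.17). With Pcna only they had 0.40 (0.23 to 0.57), which lies above no difference, and this state held 436 WT and 950 LApc barcodes. H1 was lower in LApc with both genes and with neither, at -1.20 and -1.50. Mki67 and Pcna together were found in 18.5% of LApc and 12.5% of WT barcodes.

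Total UMIs per barcode went with a large difference in histone share. Shallow barcodes had 3.80 times the deep share in WT (3.76 to 3.85), 3.60 times in LApc (3.55 to 3.65) and 3.33 times in LApcL (3.29 to 3.37). Of the genes compared, 56 of 62 in WT, 49 of 61 in LApc and 46 of 62 in LApcL were at least 2-fold higher in shallow barcodes, where 17.7%, 5.26% and 4.39% of all genes were. At least 2-fold lower were 0, 1 and 1, where 5.62%, 8.56% and 9.6% of all genes were. H3 had the largest fold of the types in WT (9.66) and LApc (7.38), and H4 in LApcL (4.57). Hist1h4f stood at 86.6 CPM in shallow and 3.15 CPM in deep WT barcodes, at 41.7 and 2.14 CPM in LApc, and at 63.3 and 8.71 CPM in LApcL.

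Some genes outside the cell-cycle pattern were exceptions here too. Hist3h2a had log2 ratios of shallow to deep of -0.50 in WT, -1.45 in LApc and -1.65 in LApcL. Hist1h2bc had -0.49 in WT and -0.30 in LApc, but 0.59 in LApcL. In LApc and LApcL the cell-cycle lists went the other way from the histone genes. Their median ratios were -0.63 and -0.71 for S phase and -0.26 and -0.84 for mitosis, with 0 genes of either list at least 2-fold higher in shallow barcodes. In WT the medians were 0.13 and 0.55. Shallow barcodes had a higher mitochondrial share (11.6% against 10.7% in WT, 11.1% against 6.45% in LApc and 10.6% against 6.94% in LApcL). They also had a lower share of ribosomal protein UMIs (14.8% against 26.0% in WT, 15.6% against 22.5% in LApc and 17.2% against 22.0% in LApcL) and more Malat1, a nuclear RNA (12910 against 5651 CPM in WT, 19590 against 14700 in LApc and 13380 against 8068 in LApcL). The 5 endothelial markers summed to 85.9 CPM in shallow and 4.77 CPM in deep WT barcodes, and to lower values in shallow than in deep barcodes of LApc (11.7 and 21.6) and LApcL (6.08 and 12.6). The part of these differences in the histone share was not tested.

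By finer bins, the share had no single direction below 10000 UMIs. In WT it was 0.379% in barcodes of 500 to 1000 UMIs, 0.893% from 1000 to 2000, 0.699% from 2000 to 5000 and 0.853% from 5000 to 10000. In LApc the same bins had 0.322%, 0.301%, 0.376% and 0.573%, and in LApcL 0.661%, 0.335%, 0.392% and 0.580%. From 10000 to 20000 UMIs the share was 0.413%, 0.232% and 0.387% in WT, LApc and LApcL, and from 20000 to 50000 it was 0.193%, 0.110% and 0.118%. From 50000 UMIs on it was 0.195%, 0.137% and 0.143%. In all 3 libraries the share was thus lower from 10000 to 20000 UMIs than from 5000 to 10000, lower again from 20000 to 50000, and not lower in the deepest bin. When the barcodes shared between libraries were included, the fold of shallow over deep was 1.67 in WT, 1.82 in LApc and 2.06 in LApcL. Their own histone share was 0.0317%, 0.0446% and 0.0336%.

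**Figure D5:**
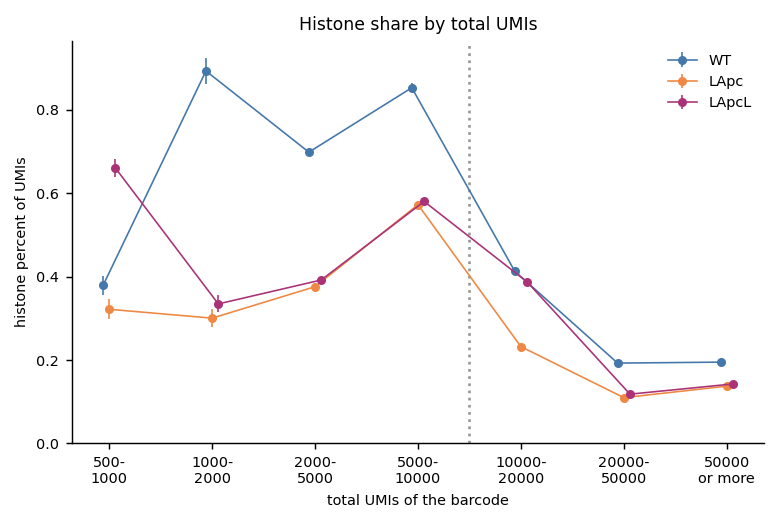
Histone share of UMIs (vertical axis, percent) by total UMIs of the barcode (horizontal axis, bins), 1 line per library with 95% Poisson intervals; the dotted line marks 10000 UMIs. All libraries lie at or below 0.195% from 20000 UMIs on and between 0.301% and 0.893% below 10000 UMIs.

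Single shallow barcodes varied widely. In WT 11.3% of them had no histone UMI (9.84 to 12.8), 48.3% had up to 0.5%, and 7.68% had 2% or more (6.49 to 9.01). In LApc 6.54% had none (5.31 to 7.95) and 3.16% had 2% or more (2.32 to 4.21), and in LApcL 2.47% had none (1.92 to 3.13) and 2.51% had 2% or more (1.95 to 3.17). The share with none depends on depth, and with each shallow barcode thinned to 500 UMIs a histone UMI was found in 74.9% of WT, 68.2% of LApc and 80.3% of LApcL barcodes, so that at equal depth LApc had the most barcodes with none. The 137 WT, 45 LApc and 68 LApcL shallow barcodes at 2% or more were set beside the 1063, 1165 and 1838 with under 0.5%. Within 10% of the limit of 2% lay 59 WT, 13 LApc and 16 LApcL barcodes. Mki67 was found in 78.8%, 82.2% and 86.8% of the histone-rich barcodes and in 10.5%, 11.6% and 12.0% of the poor ones, at median totals of 3647, 5090 and 6214 against 2794, 3243 and 3428 UMIs. Pecam1, an endothelial marker, stood at 1.87 CPM in the rich and 42.3 CPM in the poor WT barcodes, at 0 and 0.494 CPM in LApc, and at 0 and 1.04 CPM in LApcL, and its part in the comparison was not tested. Of the genes with at least 100 UMIs in the shallow barcodes of every library, a limit that does not look at the histone share, 10 of 11 S phase genes and 15 of 16 mitosis genes were at least 2-fold higher in the rich barcodes of every library, where 1.69% of all genes under that limit were. At least 2-fold lower in every library were 0 of both lists, where 0.643% of all genes were. The lists hold 26 and 20 genes, and the others were under the limit. Prc1, a protein of the spindle midzone, stood at 210 against 9.30 CPM in WT, 352 against 22.8 CPM in LApc and 408 against 27.0 CPM in LApcL. A second limit, of at least 50 CPM in the rich or the poor barcodes of each library, could be passed through the group in which a gene was high. Of the 2275 genes it kept, 99 were at least 2-fold higher and 9 lower in each library, and those with the lowest ratios were Tff3 of goblet cells (56.0 against 3376 CPM in WT) and Defa24 of Paneth cells (71.0 against 795 CPM in LApcL). The 5 Paneth and goblet markers summed to 2790 CPM in shallow WT barcodes, 327 in LApc and 1030 in LApcL, and to 858, 835 and 2457 CPM in deep ones. Their part in these differences was not tested.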

How the data were processed

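Libraries were made with a droplet-based 10x 3′ kit from organoids trypsinized for 40 minutes, passed through a 20 µm mesh and sorted. The gate for organoid cells is not given in the sources used here. For each library the authors deposited whole-number UMI counts per gene and barcode, with no normalization. The file headers name cellranger 6.0.1, while the submitters' processing notes name Cell Ranger 2.1.1 and mm10. Deposited totals were 87185429 UMIs for WT, 118867221 for LApc and 112057783 for LApcL, with at least 500 per barcode. Transcript ends were taken from the annotation (GENCODE M21), not from reads, and the counts do not separate the forms of a gene.

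Counts were summed over barcodes and scaled to CPM. Log2 ratios of single genes are log2((CPM + 1)/(CPM + 1)), which understates the change of low genes, and a gene was called at 2-fold with at least 10 UMIs in 1 of the 2 sums. Sums have exact Poisson intervals, ratios conditional binomial ones and shares of barcodes Clopper-Pearson ones, all at 95%. Barcodes are not replicates, and the spread between mice or cultures cannot be measured with 1 library per group. Deep barcodes were thinned without replacement to 10000 UMIs. Doublets were scored with Scrublet in scanpy 1.11.5. Its threshold marked 1, 0 and 0 barcodes and so did not work, and doublets were left in, with a removal by rate as an alternative. The interval and thinning steps were tested on simulated data.

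Named genes were the 5 with most UMIs in each type, 9 listed genes and the 5 highest and lowest of each comparison. The genes and lists were chosen with earlier results of these data known. All 67 gene IDs matched the annotation, and no genome sequence or protein table was used. Alternatives were another mitochondrial limit, shared barcodes, other depth limits, state limits, scaling, pseudocount and minimum.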

Additional observations from a re-analysis of the deposited data

Results flagged for a closer look

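Several differences from WT had opposite directions in deep and shallow barcodes. In LApc against WT, the log2 ratio of H2a was 0.39 in deep and -0.29 in shallow barcodes, that of H2b was 0.0801 and -0.58, and that of genes whose transcript ends at the stem-loop was 0.55 and -0.34. In LApcL against WT, H2a had 0.77 and -0.34, H3 had 0.55 and -0.62, and genes ending at the loop had 1.23 and -0.30. Hist1h2ap, an H2a gene that ends at the loop and so is in both sums, stood at 61.4, 136 and 194 CPM in deep WT, LApc and LApcL barcodes. With 1 library per group the difference between the depth classes was not tested across replicates.

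Histone UMIs were also present in barcodes left out of the comparisons. In barcodes shared between libraries they made up 0.0446% in LApc, above the 0.0317% in WT. The 7 epithelial markers summed to 818 CPM in those LApc barcodes and 94.6 CPM in those of WT, and the 5 endothelial markers to 3494 and 3756 CPM, and their part in the difference was not tested. In deep barcodes of 1 library with over 20% mitochondrial UMIs they made up 0.323% in LApcL, above the 0.269% in WT.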

How the results depend on the processing

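No paired analysis was possible because each group had 1 library, and for the same reason no replicate could be left out. The order of the histone share, WT above LApcL above LApc, was the same under 9 of 9 alternatives, and the folds by depth and by state were above 1 under each alternative run for them. Values below are for WT, LApc and LApcL in turn. The share was 0.241%, 0.136% and 0.155% with a 10% mitochondrial limit, 0.278%, 0.160% and 0.201% with none, and 0.231%, 0.141% and 0.174% with shared barcodes. It was 0.266%, 0.149% and 0.189% without the top and bottom 1% of barcodes by genes detected, 0.493%, 0.243% and 0.374% with barcodes weighted equally, 0.293%, 0.158% and 0.199% of non-mitochondrial UMIs, 0.209%, 0.130% and 0.157% without Hist1h1e, and 0.298%, 0.139% and 0.172% with median-of-ratios scaling. Without the highest Scrublet scores it was 0.149% in LApc.

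The fold of shallow over deep barcodes was 2.94, 2.57 and 2.44 at a limit of 5000 UMIs, 3.54, 2.84 and 3.46 at 20000, 4.16, 3.88 and 3.99 with a 10% mitochondrial limit, 1.67, 1.82 and 2.06 with shared barcodes, 3.12, 2.89 and 2.68 with barcodes weighted equally, and 3.66, 3.28 and 3.08 without Hist1h1e. Without the highest Scrublet scores it was 3.87 in WT and 3.42 in LApcL.

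The fold of barcodes with both Pcna and Mki67 over those with neither was 1.30, 1.27 and 1.94 without thinning, 2.32, 1.83 and 3.60 with a 10% mitochondrial limit, and 2.25, 1.99 and 3.78 without Hist1h1e. It was 2.59 in WT and 2.47 in LApc with at least 2 UMIs, 2.36, 2.67 and 2.72 with at least 3, and 3.73 in LApcL without the highest Scrublet scores. Within depth, an alternative chosen after seeing the data, it was 4.01, 3.53 and 7.58 at 10000 to 20000 UMIs, 1.73, 1.60 and 2.58 at 20000 to 50000, and 1.74, 2.57 and 2.01 from 50000 on. The limit of 100 UMIs, chosen after seeing the data wherever it is used, gave 29 genes in place of 33 for both genes against neither.

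Of the counts between libraries, a pseudocount of 10 CPM gave 0 higher and 2 lower in LApcL against LApc, and 2 higher and 4 lower in LApcL against WT. Median-of-ratios scaling gave 1 higher and 11 lower in LApc against WT and 6 higher and 11 lower in LApcL against WT. The counts at the main setting were 9 and 6 in LApcL against LApc and 11 and 8 in LApcL against WT. In both, lower genes outnumbered higher ones with the pseudocount but not at the main setting. With the scaling they did so in LApcL against WT but not in LApcL against LApc, where 8 were higher and 6 lower. In LApc against WT lower genes outnumbered higher ones at the main setting too, with 2 higher and 6 lower. Over all genes, higher and lower calls with the pseudocount were 0.29% and 0.978% in LApcL against LApc, and 8.1% and 4.09% in LApcL against WT. With the scaling they were 14.7% and 10.5% in LApc against WT, and 14.7% and 12% in LApcL against WT. The cause of these shifts was not tested. A minimum of 50 UMIs or none changed no count.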
